A study of Drosophila melanogaster with 4 samples.

Results

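Of the 13866 loci in the files, 944 carried several gene names joined by commas in 1 row, so that a single abundance value stood for several names. In the later BDGP6 annotation (dm6) all names of 86 of these rows (9.11%) belong to 1 gene, and in 816 each name is a gene of its own. All rows whose name field held a comma were taken, without regard to their values. The loci came from RNA-seq of Drosophila melanogaster pharate adults, the stage at which the finished fly has not yet left its pupal case. Ribosomal RNA was removed from total RNA, and 1 library was made for each of 4 lines, LU.10580/CAG (called CAG here), LU.10580hom (hom), LU.10580.tg1 (tg1) and LU.10580.tg2 (tg2). The file of LU.10580/CAG heads its values het. The sources used here do not give the alleles behind these names or the sex and exact age of the animals. Flies of all lines were raised at about 24 °C on cornmeal food with yeast. With 1 library per line no difference has a replicate check, and no p-value was computed.

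Fly genes are closely packed, and neighbouring genes can overlap, lie inside an intron of another gene or share 1 transcript. Small nucleolar RNAs (snoRNAs), which guide chemical modification of ribosomal RNA, are in flies usually cut from introns of a host gene. Many hosts encode ribosomal proteins, while the Uhg genes (U snoRNA host genes) are known mainly for the snoRNAs in their introns. Where such genes are joined in 1 row, the row does not show how its value divides among them.

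The values are FPKM, fragments scaled to transcript length and library depth. Over all loci the median stood at 8.48 (CAG), 8.14 (hom), 8.05 (tg1) and 8.38 (tg2) FPKM. Marker genes of tissues were looked up, of which fln, n-syb, Syt1 and janB are themselves in joined rows. They cannot show that the 4 libraries were of equal stage. Flight muscle markers lay between 1141 and 6415 FPKM in every library and photoreceptor markers between 30.1 and 962, and testis markers were present in every library at 102 FPKM or more. Summed fat body markers were 5566 FPKM in hom and between 1970.2 and 2327 in the other lines. Lsp2 and Fbp1 carried this sum, while Yp1 lay between 0.514 and 1.24 FPKM and was highest in tg1. The 2 cuticle markers summed to 93.6 FPKM in hom and between 14.8 and 26.2 in the others. Of these, Lcp65Ac was lowest in CAG, at 2.54, and Cpr49Ac in tg2, at 8.67. Neuron markers summed to 154 in hom and between 201 and 273 in the others. Photoreceptor markers summed to 1049 in hom and between 1231 and 1402 in the others. For flight muscle the sums were 11286 in hom and between 12519.5 and 14810.7, and for testis 843 in hom and between 859 and 1264. Single markers differed from these sums. The flight muscle marker up was lowest in tg2, at 1235 FPKM against 1260 in hom. The row with the testis marker janB was lowest in CAG, at 125 against 147 in hom. The 2 accessory gland markers summed to 131 FPKM in CAG and between 19.5 and 30.5 in the others. Library depth is unknown. Ratios of low values between libraries put hom at 0.764 of the depth of CAG, tg1 at 1.13 and tg2 at 1.15, from 80, 28 and 40 of 587 low loci.

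Most joined loci were pairs. There were 784 loci with 2 names (83.1%), 129 with 3, 20 with 4, 6 with 5 and 3 with 6. The locus with most names, 13, joined dom, which encodes the Domino chromatin remodelling ATPase, to 1 snmRNA and 11 snoRNAs at 2R:17200185-17229352 in the dm3 genome build. Nop60B, the pseudouridine synthase of the box H/ACA snoRNA particles, followed with 7 names. The rows held 2076 distinct names, of which 2039 had no row of their own. That is 14.6% of the 13977 names in the files, and for these names there is no separate value. The rows whose names are now 1 gene, such as CG14425 with Sxl, the switch gene of sex determination, and CG13826 with cnc, a stress-response transcription factor gene, had a median of 13.9 FPKM and a median span of 37991 bp. Rows with as many genes as names had medians of 29.0 FPKM and 8934 bp.

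By the kind of names, 847 of the 944 loci held only protein-coding genes. A snoRNA name stood in 27 loci and another small RNA in 15. A further 23 loci held a long non-coding RNA, a pseudogene or another annotated segment, and 32 held a name without a match in the annotation. The 2 loci with snRNA names joined Eip63E to the U7 snRNA and Esyt2 to a pair of U6 snRNA genes. The 1 locus with miRNA names, mir-100 and mir-125, had 4.58 (CAG), 5.77 (hom), 6.09 (tg1) and 4.62 (tg2) FPKM.

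The joined genes lay mostly on the same strand. Where at least 2 different genes could be placed on 1 sequence of the BDGP6 annotation, 813 of 824 loci had all of them on the same strand, 98.7%. Among all neighbouring protein-coding genes that the files name, 5510 of 12437 pairs lay on the same strand, 44.3%. Of these pairs 786 were joined, 784 of them on the same strand. Opposite-strand overlaps were left apart: of 1402 opposite-strand pairs that overlapped in part 0 were joined, and of 539 nested ones 1 was, against 109 of 131 and 147 of 305 on the same strand.

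Joining also followed distance. Same-strand pairs were joined in 55.9% of cases with a gap under 100 bp, in 26.3% with 100 to 199 bp, in 9.16% with 200 to 499 bp and in 1.03% with 1000 to 4999 bp. Among joined loci of exactly 2 names that are different genes on the same strand, 142 had 1 gene inside the extent of the other, 94 overlapped in part and 427 did not overlap in this annotation. The gap of the last had a median of 150 bp with quartiles of 87 and 289 bp, and was under 500 bp in 364 of them. These distances are from a later annotation than the one behind the files, so a gap here need not have been a gap there.

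**Figure D1:**
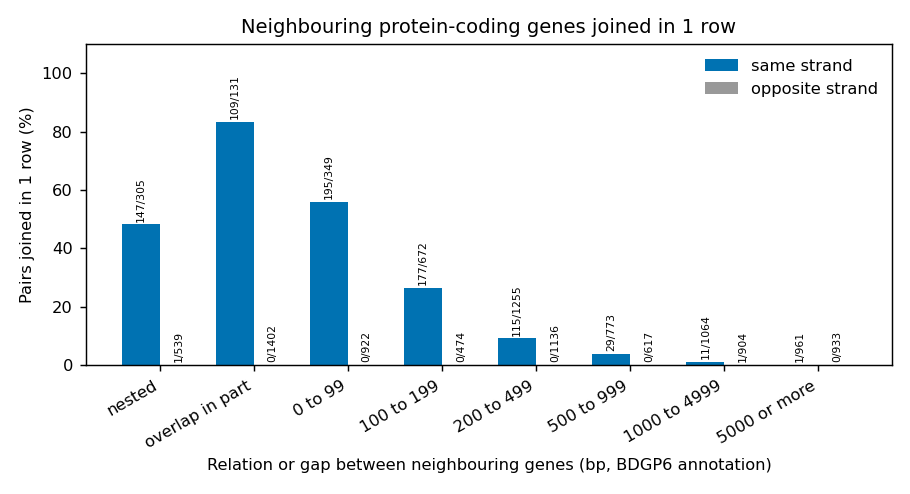
Share of neighbouring protein-coding gene pairs named in the files that were joined in 1 row (y axis, %), by relation or gap in bp in the BDGP6 annotation (x axis). Blue bars are pairs on the same strand, grey bars on opposite strands, and the counts are joined over all pairs. Same-strand bars fall from 83.2% for partial overlap to 0.104% at 5000 bp or more, and opposite-strand bars stay under 0.2%.

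The genes of 11 loci were on both strands, and 2 of these held mod(mdg4). This gene encodes a family of chromatin proteins and is known for trans-splicing, in which RNAs made from separate transcripts, some of them from the other strand, are spliced into 1 messenger. The other names of these rows, CG42769 in the first and CG42771, CG42772, CG42774, CG42775 and CG42776 in the second, are the 6 segments that the RefSeq annotation lists as pre-mod(mdg4) RNAs. The first row had 6.95 (CAG), 7.15 (hom), 6.76 (tg1) and 6.23 (tg2) FPKM. In the second the values were 8.18, 13.3, 11.7 and 8.11 FPKM, with hom and tg1 above the other lines and no difference of 2-fold. Another row, of mod(mdg4) alone with the same span, had between 30.4 and 33.3 FPKM.

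The median span of joined loci was 10032 bp, with quartiles of 4701 and 21570 bp, against 3768 bp for the 12066 loci with 1 name. The locus field gives the span of a whole bundle of rows, and 510 of the 944 joined rows (54.0%) shared theirs with another row, compared with 39.9% of rows with 1 name. Where no other row had the span, the medians were 5643 and 2040 bp. With 2 names the median was 9340 bp, with 3 it was 11681 and with 4 it was 18201 bp. Across the 944 loci, many of which share bundles, span and number of names had a Spearman rho of 0.13.

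The widest spans lay outside the main chromosome arms. The 17 joined loci there had a median span of 266894 bp, and the 927 on the arms 9862 bp, with a widest of 196939 bp. Rows that joined only histone genes, which lie in a long tandem array of near-identical copies, numbered 8. The widest of them joined 4 copies of His1, the linker histone, over 949760 bp of the Uextra scaffold and had between 29.2 and 34.6 FPKM in the 4 lines. Fragments of such copies can be shared among rows, so these values are uncertain. On the arms, 2R held 23.4% of the joined loci and 19.3% of all loci, and chromosome 4 held 1 joined locus of its 100.

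The median abundance of joined rows was above that of rows with 1 name in each library. It was 25.6 (CAG), 26.05 (hom), 25.6 (tg1) and 25.8 (tg2) FPKM, and that of rows with 1 name was 8.45, 8.17, 8.02 and 8.25. The 847 protein-coding joined loci had a median of 25.3 FPKM over the 4 libraries, against 26.6 for all joined loci. How much of a row's value came from each of its genes cannot be told apart. By number of names the median rose from 23.9 FPKM with 2 to 43.4 with 3 and 60.8 with 4. Number of names and mean FPKM had a Spearman rho of 0.18 across the 944 loci. Rows with snoRNA names, whose median was 1776 FPKM, were included, and their part in the rise was not tested.

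**Figure D2:**
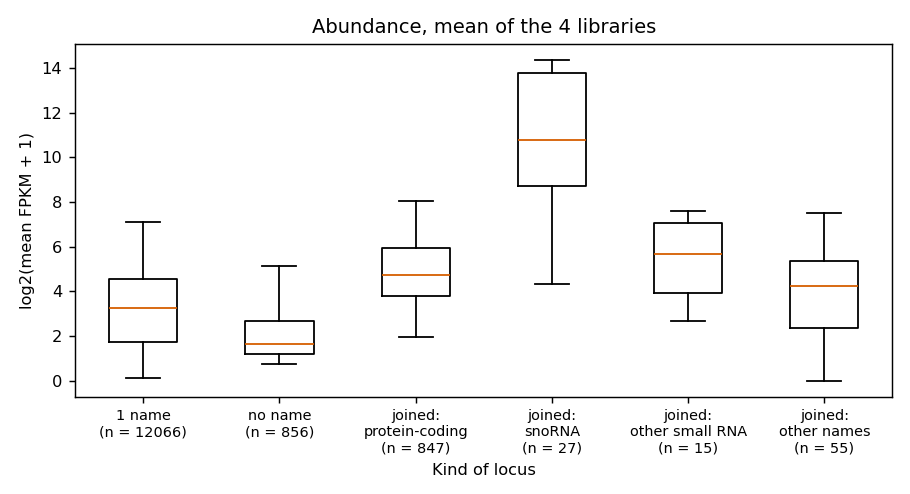
Abundance of each kind of locus as log2 of the mean FPKM of the 4 libraries plus 1 (y axis). Boxes show the quartiles and median over loci, and whiskers the 5th and 95th percentiles. Joined loci with a snoRNA name lie highest, with a median of 1776 FPKM, and joined protein-coding loci lie above loci with 1 name.

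Among protein-coding joined loci the most abundant held muscle and mitochondrial genes. The row of Mlc2, the regulatory light chain of muscle myosin, with CG1983, CG31028 and CG31030 had 11522 (CAG), 10700.5 (hom), 12751 (tg1) and 11944 (tg2) FPKM. Ant2 and sesB, the adjacent genes of the mitochondrial ADP/ATP carrier, had 4493, 3748, 4522 and 4703 FPKM. The row of fln (flightin, a thick filament protein of flight muscle) and Csas had 3992, 3723, 3953 and 5077 FPKM. At each of these rows the 4 lines lay within 1.36-fold of each other. Of the dicistronic and nested gene pairs looked for by name, 1 was joined, the cholinergic locus. Here VAChT, the vesicular acetylcholine transporter gene, lies in the first intron of Cha, the gene of choline acetyltransferase. With CG14302 this row had 42.5 (CAG), 31.4 (hom), 43.7 (tg1) and 53.5 (tg2) FPKM.

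Rows with a snoRNA name stood far above the rest. Of 24 joined loci with a mean of 1000 FPKM or more, 15 carried a snoRNA, and of 10 with 10000 or more, 8 did. Together the 27 snoRNA rows held between 66.4% and 70.9% of the FPKM summed over joined loci in each library. The highest joined CG13900 (Sf3b3, a splicing factor subunit) with 3 snoRNAs at 3L:826429-833402 and had 41338 (CAG), 44548 (hom), 38039.5 (tg1) and 46421 (tg2) FPKM. Uhg4 with snoRNA:Or-aca5 had 32389, 35838, 26394 and 31821 FPKM. The RNA of RNase P, the enzyme that trims transfer RNA precursors, was joined to CG1746 (ATPsynC, an ATP synthase subunit) and this row had between 10450.0 and 12215 FPKM.

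Ribosomal protein genes show the contrast within 1 family. The 9 rows that joined such a gene with a snoRNA name had a median of 13581 FPKM. The 8 joined rows without a snoRNA name had a median of 271, and the 69 rows of a single ribosomal protein gene 690. Those without a snoRNA name ran from 20.1 to 1326 FPKM and include RpL23A with Uhg7, a snoRNA host gene. The groups hold different genes, and the part of the snoRNA names in the contrast was not tested. RpS16 with 3 snoRNAs stood highest, at 24368 (CAG), 24053 (hom), 16240.0 (tg1) and 19731 (tg2) FPKM. Not all snoRNA rows were high: RpL17 with snoRNA:Psi28S-1232 had 491, 509, 505 and 412 FPKM, and RpS6 with snoRNA:Or-aca2 had 724, 737, 695 and 603. FPKM divides by length, and the rows do not show which part came from the long messenger and which from the short snoRNAs.

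Between lines, 17 of the 26 snoRNA rows that passed the filter stayed within 2-fold and 9 did not. To pass, the 4 libraries had to average 1 FPKM or more, which 916 of the 944 joined loci did, and a difference was called where it was 2-fold or more in log2(FPKM + 1). This scale understates the change of low loci, and folds are given on it. Several rows took either a high or a low value with little between. RpL28 with 3 snoRNAs at 3L:3219124-3222960 reached 7461 FPKM in hom, with 234 for CAG, 241 for tg1 and 218 for tg2. The high value stood in a single library, and the other libraries differed little from each other. Uhg1 with snoRNA:Me28S-A3407a had 993 FPKM in CAG and 794 in tg1, against 6.79 in hom and 13.1 in tg2.

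The same split fell on other lines at other hosts. Nop60B with 6 snoRNAs had 889.6 FPKM in CAG and 651 in tg2, against 13.0 in hom and 17.4 in tg1. CG1518 (Stt3A, a subunit of oligosaccharyltransferase, which adds sugar chains to proteins) with 3 snoRNAs had 267 FPKM in tg1, against 11.6 in CAG, 13.4 in hom and 10.2 in tg2. No line was on the high side at all 4 of these loci. The row of Msp-300, which encodes a nesprin that anchors muscle nuclei, with Cyp28d2 and 4 small RNAs was listed at 0 in hom, with 783 (CAG), 563 (tg1) and 769.9 (tg2) FPKM elsewhere. Values of exactly 0 may be failed estimates, so no fold is given for it. It was the 1 joined locus past the filter with a 0 in any library.

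Smaller differences stood at 4 further snoRNA rows. Uhg5 with 3 snoRNAs had 1383 (CAG), 1179.7 (hom), 2434 (tg1) and 359.9 (tg2) FPKM, and Uhg2 with 2 snoRNAs had 202, 126, 486 and 519. CG12316 with snoRNA:MeU5-U42 had 811 (CAG), 1584 (hom), 547 (tg1) and 294 (tg2) FPKM. The row of tou with snoRNA:Psi28S-1180 had 10077.5, 7213, 6010.3 and 13259.5 FPKM, with tg2 highest. Of the 15 rows with another kind of small RNA 0 reached 2-fold, where the share over all loci was 11.6%, so that so few rows tell little.

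**Figure D3:**
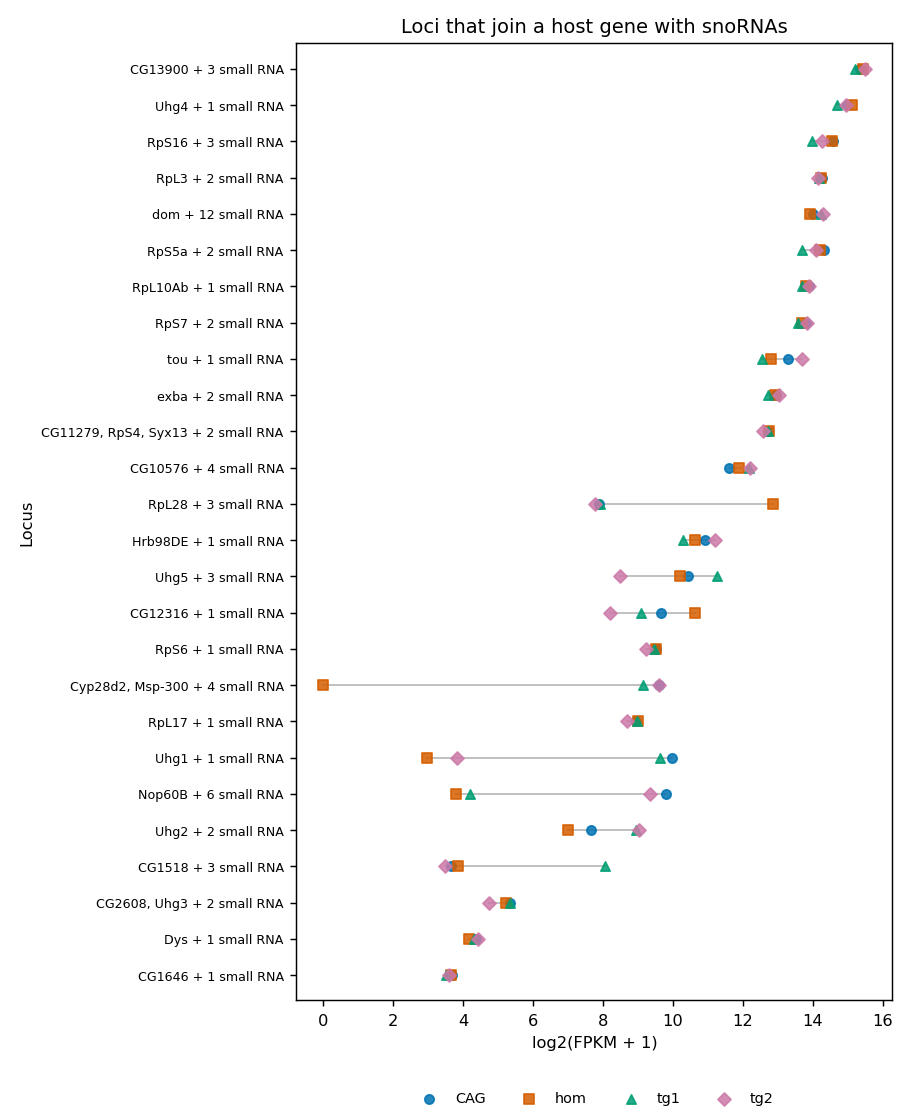
Values of the 26 joined loci with a snoRNA name that passed the filter, as log2(FPKM + 1) in each of the 4 lines (x axis), ordered by mean. Each symbol is 1 library and the grey line spans the 4. The RpL28, Uhg1, Nop60B and CG1518 rows split into high and low libraries, the Msp-300 row is at 0 in hom, and rows near the top lie close together.

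Most joined loci lay close together in the 4 lines. A range of 2-fold or more over the 4 libraries was found at 63 of 916 joined loci, 6.88%, against 11.6% of all 11689 loci tested. Among the 10051 tested loci with 1 name it was 9.79%, and among the 722 without a name 42.9%. Leaving out the Msp-300 row, listed at 0 in hom, the joined count was 62. The share was 6.39% among the 830 protein-coding joined loci and 34.6%, 9 of 26, among snoRNA rows. The median range was 1.29-fold for joined loci and 1.32-fold for loci with 1 name. Because joined loci are more abundant, the shares were also taken by abundance. Between 20 and 100 FPKM it was 6.09% of 427 joined loci and 8.45% of 2626 loci with 1 name, and at 100 FPKM or more 15 of 150 and 126 of 760, the latter 16.6%. At 1 to 5 FPKM the order was the other way, with 15.7% of 70 and 13.9% of 2501. With a pseudocount of 5 in place of 1, the count of joined loci with a 2-fold range was 39. The share over all loci was not taken at that pseudocount. No test of these shares was made, since neighbouring rows share fragments and libraries.

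**Figure D4:**
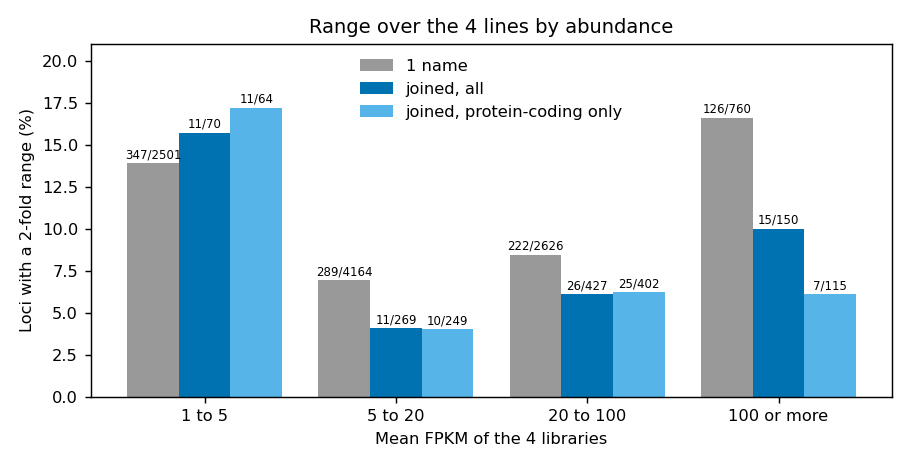
Share of loci whose 4 libraries span 2-fold or more on the log2(FPKM + 1) scale (y axis, %), by mean FPKM (x axis). Grey bars are loci with 1 name, dark blue all joined loci and light blue joined loci with protein-coding names only, with counts above the bars. From 5 FPKM upwards both blue bars lie below the grey one.

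Comparing the lines in their 6 pairs, between 15 and 33 joined loci were called, and the share of all tested loci past the same threshold is given beside each count. Between hom and CAG 26 of 916 joined loci were called (all loci, 5.3%), with hom higher at 11 (1.87%) and lower at 15 (3.43%). tg1 differed from CAG at 18 (3.55%), being higher at 4 (1.19%) and lower at 14 (2.36%). tg2 differed from CAG at 21 (4.59%), with 6 higher (2.25%) and 15 lower (2.34%). In each pair with CAG, lower calls outnumbered higher ones among joined loci, as they did among all loci and among rows with 1 name. Against hom, tg1 was called at 20 (3.54%), of which 9 were higher (1.82%) and 11 lower (1.72%). tg2 was called against hom at 33 (6.48%), 11 of them higher (3.78%) and 22 lower (2.69%). Lower calls were thus the majority among joined loci and the minority among all loci in this pair. tg1 and tg2 differed at 15 (3.31%), with tg1 higher at 10 (1.33%) and lower at 5 (1.98%). As shares of 916, the joined counts by direction run from 0.437% to 2.4%, each below its share over all loci. The shares over all loci include the rows without a name, where calls were more frequent. Against rows with 1 name the gap was small in some directions. For tg2 lower than hom the shares were 2.4% of joined rows and 2.47% of rows with 1 name. For tg1 higher than tg2 they were 1.09% and 1.15%. The calls of tg1 against CAG numbered 11 with a pseudocount of 5. Those of tg1 against hom numbered 12 among the 830 protein-coding joined loci, 1.45% (all loci, 3.54%). No share over all loci was taken at a pseudocount of 5. Pairs that share a library are not independent of each other.

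Single lines stood at least 2-fold from each of the other 3 in 23 cases, in which the row of dro3 and dro4 counts for both CAG and hom. CAG did so at 6 joined loci (all loci, 1.13%), above at 4 (0.779%) and below at 2 (0.351%). hom did so at 10 (1.43%), above at 7 (0.684%) and below at 3 (0.744%). Leaving out the Msp-300 row, counted as below because hom was listed at 0, the hom count was 9. tg1 stood apart at 1 (0.291%), above at 1 (0.111%) and below at 0 (0.18%), and tg2 at 6 (1.16%), above at 1 (0.659%) and below at 5 (0.505%). The tg1 case was the CG1518 row with its snoRNAs.

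The widest range among protein-coding joined loci was in genes of drosomycin-like peptides, relatives of the antifungal peptide Drosomycin. The row of dro3 and dro4 (Drsl3 and Drsl4) at 3L:3314954-3315975 had 39.5 (CAG), 1094 (hom), 136 (tg1) and 266 (tg2) FPKM. hom was highest and CAG lowest, each 2-fold or more from the rest, while tg1 and tg2 differed by less than 2-fold, with a difference of 4.76 on the log2 scale between hom and CAG. Just before it, ZnT63C, a zinc transporter gene, was joined to dro2 (Drsl2) at 3L:3303722-3314775, with 29.1 (CAG), 88.05 (hom), 26.8 (tg1) and 27.6 (tg2) FPKM. The next member, dro5 (Drsl5), had a row of its own with 33.9, 60.5, 53.5 and 73.6 FPKM, and there hom was not the highest.

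Other joined loci were high in hom alone. Fbp2, a fat body protein of the short-chain dehydrogenase family, overlaps CG42847, and their row at 2L:9426763-9428754 had 441 (CAG), 1989.6 (hom), 392 (tg1) and 396 (tg2) FPKM. The difference of hom from CAG was 2.17 on the log2 scale, and the other 3 lines lay close together. As given above, summed fat body and cuticle markers were also highest in hom. The neuron, photoreceptor, flight muscle and testis sums were lowest there, the testis sum only narrowly, although the single markers up and janB were not. The part of these tissues in this and the other hom results was not tested. In whole animals, fewer cells of a type and less RNA per cell cannot be told apart. CG33346 with CG9989 (Sid) had 63.1 FPKM in hom and between 17.1 and 20.1 in the others. The row of Tsp42Ep, a tetraspanin gene, and pgant3, an enzyme that starts O-linked sugar chains, had 91.7 FPKM in hom and 35.2, 38.8 and 25.2 in CAG, tg1 and tg2. CG11089 with CG31381 had 229.8 FPKM in hom and between 76.4 and 111 elsewhere.

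hom was lowest at the odorant-binding protein genes Obp57a, Obp57b and Obp57c, which encode carriers for odorants or tastants. Their row at 2R:16391008-16393479 had 80.3 (CAG), 8.51 (hom), 31.4 (tg1) and 64.1 (tg2) FPKM, a difference of hom from CAG of −3.10. tg1 was also 2-fold or more from every other line here, but lay between them. The call of tg1 against tg2, −1.01, did not hold after median centring, at −0.95, or trimmed mean scaling, at −0.98. CG16790 with CG9396 and CG9399 had 84.6 (CAG), 19.0 (hom), 46.1 (tg1) and 65.2 (tg2) FPKM. Both rows had hom lowest, then tg1, then tg2, with CAG highest.

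CAG stood 2-fold above the other lines at 2 of the 10 joined loci with an Acp, Sfp or Mst name (all loci, 0.779%). Such names are mostly of genes of the male reproductive tract. CG42465, CG42467 and Sfp24C1 at 2L:3700207-3701675 had 32.5 (CAG), 10.1 (hom), 9.12 (tg1) and 8.17 (tg2) FPKM. Mst57Dc and Sfp96F, 362 bp apart, had 109 (CAG), 50.7 (hom), 40.8 (tg1) and 48.9 (tg2) FPKM. The summed accessory gland markers moved the same way; their part in these results was not tested. A 2-fold range was found at 3 of the 10 (all loci, 11.6%). The third was Mst84Db with MstProx, where tg2 was highest with 567 FPKM and hom lowest with 264. Acp26Aa with Acp26Ab, seminal fluid protein genes, had 20.2 (CAG), 10.3 (hom), 14.0 (tg1) and 19.9 (tg2) FPKM, with CAG and tg2 close together and no difference of 2-fold. CG18628 with CG8009 had 139 FPKM in CAG and between 32.1 and 48.9 elsewhere, and CG10096 with CG10097 had 21.1 against 5.28 to 6.51. CAG was lowest at CG42762 with CG42763, with 8.70 FPKM against 33.04 in hom, 33.0 in tg1 and 27.8 in tg2.

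In tg2 the Cyp4p cluster was high and 4 protein-coding rows were low. Cyp4p1, Cyp4p2 and Cyp4p3, adjacent cytochrome P450 genes at 2R:5115286-5134752, had 12.7 (CAG), 11.6 (hom), 9.84 (tg1) and 51.7 (tg2) FPKM. Of 11 joined loci with a Cyp name 4 had a 2-fold range (all loci, 11.6%), among them Cyp309a1 with Cyp309a2, which stood at 15.1 FPKM in CAG and at 38.5 in hom, and Cyp304a1 with Spc25, which had 64.6 in hom and 27.9 in tg2. The fourth was the Msp-300 row, which carries Cyp28d2 and counts only through the 0 listed in hom. CG14402, CG31673, CG31674 and CG31676, joined in 1 row, had 42.6 FPKM in tg2 and between 108 and 139 in the other lines. CG10321 with CG15674 had 31.7 FPKM in tg2 against 78.3 to 109.6, CG14096 with CG18294 had 13.4 against 35.8 to 48.2, and CG14935 (Mal-B2) with CG42751 had 16.9 against 37.1 to 43.2.

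**Figure D5:**
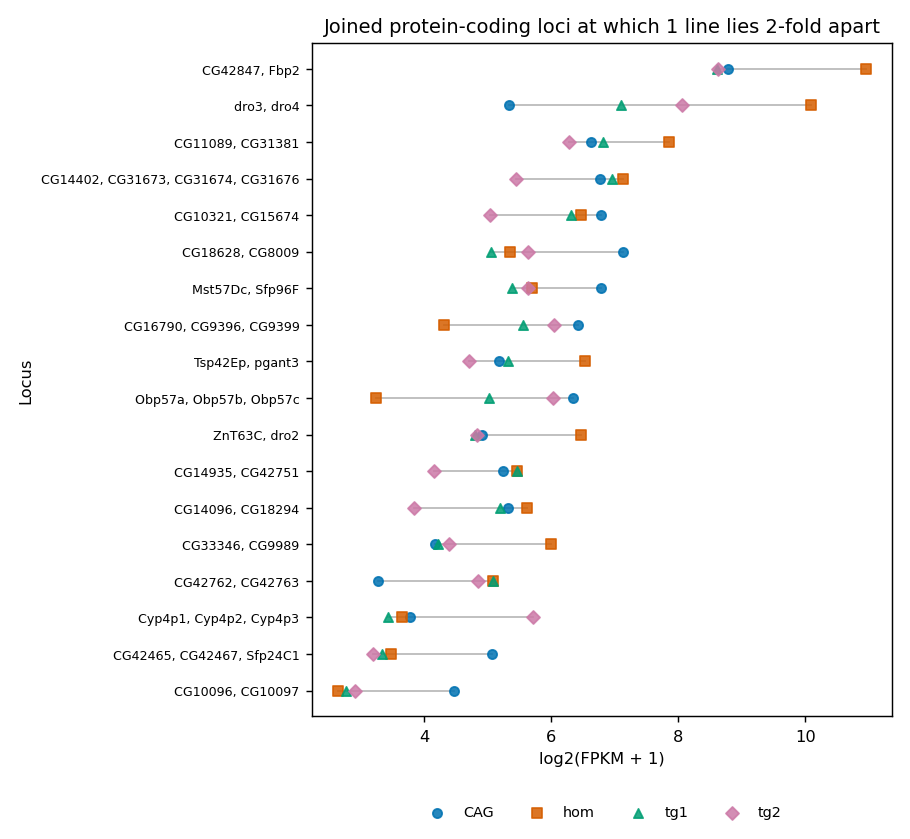
Values of the 18 joined protein-coding loci at which 1 line lay 2-fold or more from each of the other 3, as log2(FPKM + 1) (x axis), ordered by mean. Each symbol is 1 library and the grey line spans the 4. The dro3 and dro4 row has the widest span, and at the Fbp2 row hom lies alone on the right.

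The lists by symbol were small, and their counts stand beside a share of 11.6% over all loci and 6.88% of joined loci, at which most lists of these sizes would hold few such loci or none. A 2-fold range was found at 1 of 17 loci with a ribosomal protein gene (the RpL28 row), at 0 of 7 with a mitochondrial ribosomal protein gene, at 0 of 4 with a proteasome gene, at 0 of 8 with a histone gene and at 1 of 6 in the cuticle list (the Cpr57A row), which was taken by symbol and also holds Cp110 and the Aats-phe row. Both tested rows of the antimicrobial list, dro3 with dro4 and ZnT63C with dro2, and the 1 row with Fbp2 passed, and of 13 loci with a Gr, Or, Ir or Obp gene only the Obp57 row did. The 28 tested rows whose names share a symbol start of at least 3 letters, such as Obp57a and Obp57b, had a 2-fold range at 7. Among the 356 tested rows that held CG or CR numbers alone it was 34, 9.55%, and among the 560 rows with another symbol 29, 5.18%. Over all 63 joined loci with a 2-fold range the highest value was in hom at 24 and in CAG at 22, and the lowest was in tg2 at 24 and in hom at 19. The same split was not counted over all loci, so it cannot be called particular to joined loci.

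Joined loci listed at 0 in every library mostly carried names found in several rows. There were 22, of which 20 carried a name that another row also held, compared with 33 of the other 922 joined loci. They included 4 rows of Stellate genes, a tandem family on the X that is silenced in the testis, 3 rows of IM10 with CG33470 and 2 of histone H4 copies. CG30382 with Prosalpha1, near-identical proteasome subunit genes, was listed at 0 as well, and so was a row of Prosalpha1 alone. Of the 37 names with both a joined row and a row of their own, the joined row was the higher for 27, the own row for 5, and both were at 0 for 5. For example, p47 with Aldh-III had between 58.5 and 92.2 FPKM, while the rows of Aldh-III alone had between 0.508 and 2.22. The remaining 6 joined loci below the filter had values above 0 in at least 1 library, among them Hsp70Aa with Hsp70Ab, the stress-induced heat shock genes, between 0.323 and 0.514 FPKM.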

How the data were processed

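The authors deposited FPKM values, 1 per locus and library, as the file headers name them. Per the submitters' processing notes, Cufflinks, TopHat, bedtools and SAMtools were used with the build dm3. Versions, annotation, strand use and the handling of fragments that map to several places were not given in the sources used here. Per the labels' protocols, ribosomal RNA was depleted and 48 nt paired ends were read. Starts in the files count from 0: on arm 2L the most frequent offset to annotated starts was 1 (431 of 2211 loci) and to ends 0. They were written from 1.

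Names were matched to RefSeq Release 6 symbols and synonyms held by a single gene (2042 of 2076). Strand and gaps came from Ensembl release 115 (BDGP6.54), as relations only; none of its coordinates is printed. Differences are in log2(FPKM + 1), called at 1, with a mean of at least 1 FPKM. Python 3.11.15 and pandas 2.3.3 were used. The rule for named loci took the most abundant, those with most names and widest spans, and the 5 largest differences per pair and direction and per line and list. Others were chosen after their values were seen. The loci and lists were chosen with earlier results of these data known. Alternatives were pseudocounts of 0.1 and 5, no filter, a filter of 5 FPKM, median centring, trimmed mean scaling, and subsets of loci. Depth is unknown, so no counting interval is given.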

Additional observations from a re-analysis of the deposited data

How the results depend on the processing

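No paired analysis was possible because each line has 1 library. Of the 11 counts of joined loci, those for 5 of 6 pairs kept within 1.5 times under pseudocounts of 0.1 and 5, no filter, a filter of 5 FPKM, median centring, trimmed mean scaling, and leaving out loci listed at 0 or repeated spans. With a pseudocount of 5, the calls of tg1 against CAG fell from 18 to 11 and the loci with a 2-fold range from 63 to 39. These are counts of joined loci alone, without the share over all loci at that pseudocount. With a pseudocount of 0.1, tg1 stood apart at 2 loci in place of 1. With protein-coding names only, the calls of tg1 against hom were 12 in place of 20, and tg1 stood apart at 0 loci. This setting leaves fewer loci, and the calls against hom were 1.45% of 830 in place of 2.18% of 916 (all loci, 3.54%). The alternatives for the 2-fold range were chosen after seeing the data. The median FPKM of joined loci in CAG, hom, tg1 and tg2 was 27.2, 27.3, 26.6 and 27.03 over loci of 1 FPKM or more, 27.4, 27.1, 26.6 and 27.3 with each span counted once, and 26.9, 27.2, 26.4 and 26.8 without loci listed at 0. No named difference changed direction under another pseudocount, median centring or trimmed mean scaling, and 4 called ones fell below 2-fold with a pseudocount of 5. Of these, the Obp57 row in tg1 against tg2, at −0.93 there, fell short under centring and scaling too. CG12519 with CG32213 passed the call in tg1 against CAG under the other 3 settings. With 1 library per line, no library could be left out. The depth is unknown; if the ratio of 0.764 to CAG, read from 80 of 587 low loci, holds, low values are least certain in hom.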
